A study of Mus musculus with 28 samples.

Results

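The response of TNF-treated LLC cells to BAY-876 was described by setting 3 libraries of cells given BAY-876 with TNF against 3 libraries of cells given TNF alone. LLC cells are an established line from a mouse lung carcinoma, BAY-876 blocks the glucose transporter GLUT1, and TNF is an inflammatory cytokine. Genes were kept where at least 3 of these 6 libraries held 1 TPM or more, a transcript's share of all transcripts scaled to 1000000 per library, which left 12052 of the 55291 genes of the table. The series holds 28 libraries in all. The question is how these cells respond to the inhibitor in the presence of the cytokine, and the other libraries hold single treatments and cells of an adoptive transfer experiment.

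The cells given BAY-876 with TNF received 200 nM of the inhibitor for 24 h and then 20 ng/ml TNF for 32 h. The cells given TNF alone had the same cytokine dose and time without the inhibitor. For the companion comparison at 32 h, 3 libraries came from cells given 200 nM BAY-876 for 24 h and no TNF, and 3 from control cells given neither, labelled vehicle. A separate experiment held 3 libraries of cells given 200 nM BAY-876 and 3 of cells given vehicle, both at 36 h. All of these cells were wild type by their labels, which do not state whether the inhibitor stayed on during TNF treatment. All results come from a single cell line in culture. Nothing in the labels ties replicates to separate cultures, so p-values reflect the spread between these libraries and that spread may be technical. In 2 of the 3 libraries of BAY-876 with TNF, the treatment label carries another compound number than the title, and both were grouped by title.

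GLUT1, encoded by Slc2a1, carries glucose across the plasma membrane. When glucose entry falls, the paired transcription factors MondoA and Mlx leave the promoter of Txnip, whose protein is a brake on glucose uptake. Shortage of nutrients also activates the kinases of the integrated stress response, which raise translation of the transcription factor ATF4 and through it the genes of amino acid uptake and synthesis and of tRNA charging. TNF acts through its receptor on NF-kappaB, and on caspase-8 when the survival arm is blocked.

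The promoters of 5 genes that changed with BAY-876 are shown because they hold elements known to read these signals. They were chosen after their values were seen. The carbohydrate response element read by MondoA and Mlx was searched as 2 copies of CACGNG with 5 bases between them. The CARE element bound by ATF4 with its C/EBP partners was searched as TGATGNAA, and both were searched on either strand. RefSeq windows ran from 250 bases before to 50 after a transcript start of each gene on GRCm38.p6. For Atf3 that start lies inside the gene's GENCODE span, 191170296 to 191218039 on chromosome 1. Capitals mark the match, and each sequence is given on the gene's own strand, 5′ to 3′.
Txnip (chr3:96557852-96557908, plus strand, match 85 bases before the start): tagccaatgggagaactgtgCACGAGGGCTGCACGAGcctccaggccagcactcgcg
Atf3 (chr1:191183416-191183463, minus strand, match 110 bases before the start): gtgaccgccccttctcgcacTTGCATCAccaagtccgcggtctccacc
Chac1 (chr2:119351029-119351076, plus strand, match 193 bases before the start): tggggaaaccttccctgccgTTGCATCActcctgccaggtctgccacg
Slc7a11 (chr3:50443633-50443699, minus strand, matches 66 and 47 bases before the start): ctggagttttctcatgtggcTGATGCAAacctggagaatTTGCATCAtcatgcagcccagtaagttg
Pck2 (chr14:55540143-55540190, plus strand, match 103 bases before the start): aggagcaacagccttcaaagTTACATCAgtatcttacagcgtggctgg

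None of these stretches overlaps an exon of its gene in GENCODE M21. The paired E-box was present in 0.0487% of the 32851 promoter windows, and TGATGNAA in 3.97%. By gene, TGATGNAA was present in 5.14% of the 1012 genes that were higher with BAY-876 and had a window, in 1.88% of the 2389 that were lower, and in 2.5% of the 8917 tested genes with a window. Of the lists described below, 5 of 18 genes of the ATF4 and stress factor list held it (Atf3, Chac1, Fgf21, Nupr1 and Trib3), as did 4 of 19 amino acid genes (Asns, Pycr1, Slc1a4 and Slc7a11) and 5 of 14 tRNA synthetase genes (Aars, Gars, Iars, Tars and Yars). These matches describe letters in a window and are not measured binding.

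With TNF present, BAY-876 raised stress-response and amino acid genes and lowered the glucose-responsive gene Txnip, many cell cycle, antigen-presentation and matrix genes, and the genes of several caspases. At an adjusted p under 0.05 (limma, Benjamini-Hochberg over all 12052 genes), 4349 genes differed, which is 36.1% of those tested. Of these, 1321 genes (11.0%) were higher with BAY-876 and 3028 (25.1%) were lower. In bulk libraries, fewer cells of a kind and less RNA per cell cannot be told apart. The split depended on how libraries were scaled. As deposited, TPM gave a median log2 difference of -0.08 over all genes, and median-ratio size factors moved this median to -0.0016 and the split to 2056 higher (17.1%) and 2024 lower (16.8%). Quantile scaling gave 1883 genes higher and 2070 lower of the 12052. Counts within the gene lists below are to be read beside those of all genes under the same scaling, since several lists lie near them. The libraries of the groups did not overlap in 14.8% of genes in the higher direction and in 31.6% in the lower. The authors' deposited table of the same comparison called 1875 genes higher and 1746 lower among 13001, and of the 11812 genes that it shares with the fit reported here, 1245 were higher in both, 1692 lower in both and 0 in opposite directions.

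**Figure D1:**
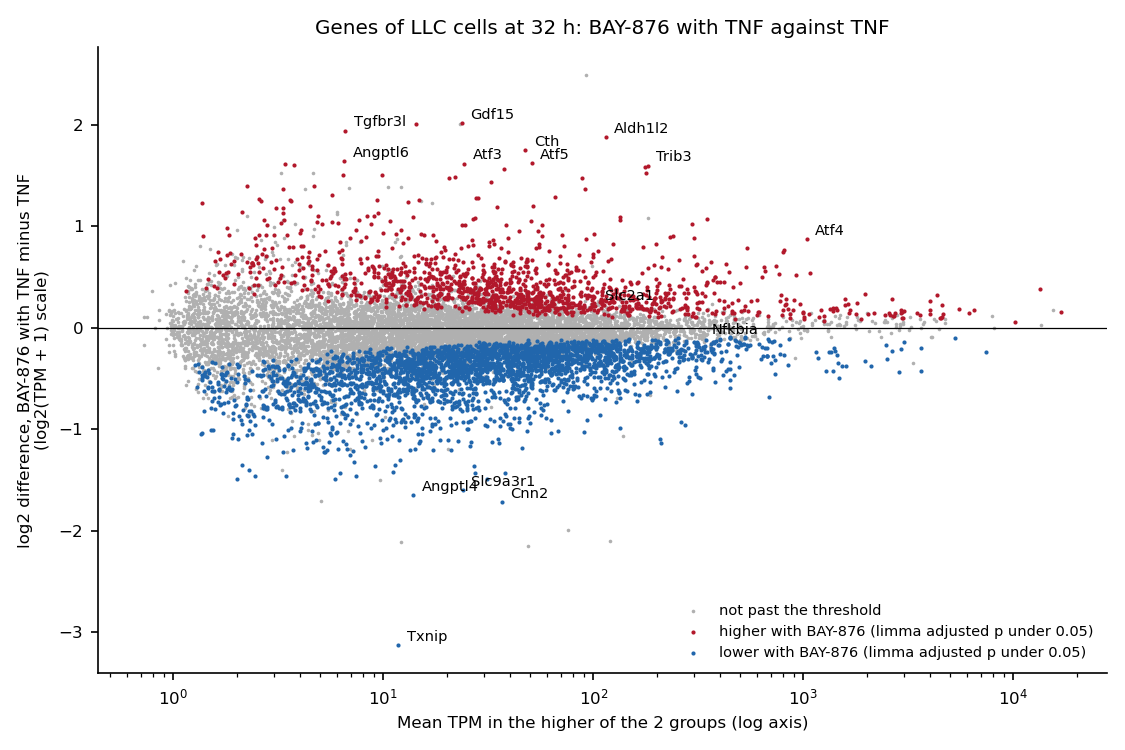
Each point is a gene, with its mean TPM in the higher of the 2 groups on a log axis and its log2 difference, BAY-876 with TNF minus TNF, on the other. Red and blue points passed the limma threshold. Txnip has the lowest value at -3.12, Gdf15 is near the top at 2.02, and the 3028 blue points outnumber the 1321 red ones.

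Libraries within a group correlated at 0.9875 to 0.9890 for BAY-876 with TNF and at 0.9890 to 0.9896 for TNF over log2(TPM + 1). Between 11884 and 11949 genes reached 1 TPM per library with BAY-876 and TNF, against 11954 to 12115 with TNF alone, and mitochondrial transcripts took 5.52 to 6.07% of TPM with BAY-876 and TNF, against 5.40 to 5.76% with TNF alone. Of 11 markers of the LLC line 9 were tested, and Krt19 and Epcam stayed under 1 TPM in all of these libraries. The 11 summed to 2526 to 2592 TPM with BAY-876 and TNF, against 2906 to 3093 TPM with TNF alone, and 7 of them were lower. The 6 markers of T cells summed to 0.213 to 0.526 TPM with BAY-876 and TNF, against 0.408 to 1.32 TPM with TNF alone, with Cd3e, Cd3d and Cd8a at 0. The 4 endothelial markers summed to 0.0654 to 0.649 TPM with BAY-876 and TNF, against 0.0351 to 0.519 TPM with TNF alone. The 4 erythroid markers summed to 0 to 0.843 TPM with BAY-876 and TNF, against 0.348 to 1.16 TPM with TNF alone. The 7 myeloid markers summed to 2.49 to 4.25 TPM with BAY-876 and TNF, against 2.64 to 3.53 TPM with TNF alone, with Ptprc, Lyz2 and Adgre1 under 1 TPM. The 5 fibroblast markers summed to 300.0 to 341 TPM with BAY-876 and TNF, against 359 to 422 TPM with TNF alone, while Lum and Thy1 stayed under 1 TPM. Of the 3 tested, 1 was higher, Dcn (log2 0.89), and 2 were lower, Pdgfra (log2 -0.93) and Col3a1 (log2 -0.24). What these marker differences contribute to the results was not tested.

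Txnip, on chromosome 3 (96557957 to 96561883, plus strand), fell furthest among the genes named. Its level was 0.516, 0.553 and 0.223 TPM with BAY-876 and TNF, against 16.2, 10.6 and 8.58 TPM with TNF alone. Every library with the inhibitor was thus under 1 TPM, far below all 3 without it. The log2 difference was -3.12 (SE 0.19), on a log2(TPM + 1) scale that understates the change of a gene at so low a level. Txnip passed the expression filter through its TNF libraries alone and so had to differ, for which reason no p-value is given. Without TNF, Txnip averaged 0.491 ± 0.177 TPM in BAY-876 cells and 43.5 ± 0.684 TPM in control cells (SD, n = 3 each), a log2 difference of -4.90. At 36 h it averaged 21.2 ± 7.53 normalized counts with BAY-876 and 1332 ± 56.5 with vehicle (SD, n = 3 each; log2 -5.96, limma adjusted p = 5.05e-06). Arrdc4, a related arrestin-domain gene that MondoA also controls, lay below the expression filter at 32 h, at 0.269, 0.121 and 0.154 TPM with BAY-876 and TNF, against 0.741, 0.389 and 0.377 TPM with TNF alone, and was not tested there.

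Among glucose transporters 5 of 14 listed genes were tested, 1 of which was higher and 1 lower, and 2 were higher under median-ratio and 3 under quantile scaling. Slc2a1 stood at 125, 95.98 and 90.3 TPM with BAY-876 and TNF, against 88.97, 84.8 and 87.7 TPM with TNF alone. The inhibitor libraries were all above the others, the first by the widest margin, and the log2 difference of 0.23 (SE 0.10) did not pass the threshold (limma adjusted p = 0.0867). It did pass at 0.32 under median-ratio scaling (limma adjusted p = 0.0158), at 0.28 under quantile scaling (limma adjusted p = 0.0357) and at 0.33 without the third library of BAY-876 with TNF (limma adjusted p = 0.0261). Over all alternatives the limma adjusted p ran from 0.0158 to 0.288, and the difference was 0.09 without the first library of BAY-876 with TNF. In the authors' deposited table Slc2a1 had a log2 difference of 0.34 with an adjusted p of 0.00179. Without TNF, Slc2a1 was higher with BAY-876, at 121 ± 9.33 TPM with BAY-876 and 76.8 ± 3.10 TPM in control cells (SD, n = 3; log2 0.64), and the responses with and without TNF were not shown to differ (log2 -0.41, SE 0.14, limma adjusted p = 0.19). The gene of the high-affinity transporter GLUT3, Slc2a3, rose to 7.65, 6.37 and 7.65 TPM with BAY-876 and TNF, against 4.66, 4.88 and 5.002 TPM with TNF alone (log2 0.49, SE 0.13, limma adjusted p = 0.0129). Slc2a8, which encodes the intracellular transporter GLUT8, fell to 2.42, 2.38 and 2.42 TPM with BAY-876 and TNF, against 5.04, 4.98 and 4.37 TPM with TNF alone (log2 -0.77, SE 0.10, limma adjusted p = 0.000173). Slc2a6 (log2 -0.34) and Slc2a10 (log2 0.41) did not pass, and the other glucose transporter genes of the list were below the filter. Slc2a1 made up 85.8 ± 2.18% of summed Slc2a TPM with BAY-876 and TNF and 82.7 ± 1.54% with TNF alone (SD, n = 3 each; exact two-sided permutation p = 0.2, where the smallest possible is 0.1). That difference of 3.15 percentage points was -1.34 when only Slc2a1 to Slc2a4 were summed.

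Most genes of the ATF4 and stress factor list rose. Of 18 tested members, 13 were higher with BAY-876 and 1, Eif2ak2, was lower, with a median log2 difference of 0.84 where all genes had -0.08. Atf4 itself, on chromosome 15 (80255184 to 80257541, plus strand), was at 1091, 1033 and 989.5 TPM with BAY-876 and TNF, against 577, 561 and 561 TPM with TNF alone. The groups were far apart relative to their spread (log2 0.87, SE 0.04, limma adjusted p = 1.92e-07). Ddit3, which encodes the pro-apoptotic factor CHOP, stood at 188, 181 and 165 TPM with BAY-876 and TNF, against 67.5, 58.95 and 57.8 TPM with TNF alone (log2 1.52, SE 0.07, limma adjusted p = 1.88e-07). Trib3, a pseudokinase that CHOP and ATF4 induce, reached 180.2, 199 and 166 TPM with BAY-876 and TNF, against 58.7, 58.97 and 59.9 TPM with TNF alone (log2 1.60). Atf3 was at 24.2, 22.6 and 26.04 TPM with BAY-876 and TNF, against 7.86, 6.33 and 7.58 TPM with TNF alone (log2 1.62). In each of these genes all inhibitor libraries lay far above all TNF libraries. Ddit3, Trib3 and Atf3 were named among the highest log2 differences, for which groups that do not overlap were required. For these genes the separation is therefore no separate evidence. The groups did not overlap in 14.8% of all genes in the higher direction.

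Gdf15, a stress-induced secreted factor on chromosome 8 (70629393 to 70632456, minus strand), had the largest rise of the named genes. It was at 23.1, 24.8 and 23.4 TPM with BAY-876 and TNF, against 5.95, 5.08 and 4.36 TPM with TNF alone (log2 2.02, SE 0.11, limma adjusted p = 3.15e-07). Chac1, which degrades glutathione, was at 33.3, 31.1 and 33.3 TPM with BAY-876 and TNF, against 12.2, 10.8 and 11.3 TPM with TNF alone (log2 1.43). Sesn2, a leucine-sensing inhibitor of mTORC1, and Ddit4, another mTORC1 inhibitor, had log2 differences of 1.29 and 0.87. Atf5, a further stress-response transcription factor, averaged 51.0 ± 5.02 TPM with BAY-876 and TNF and 15.9 ± 2.02 TPM with TNF alone (SD, n = 3 each; log2 1.62). Cebpb, Nupr1, Ppp1r15a and Fgf21 of the list also passed, all higher.

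Genes that import or make amino acids moved the same way. Of 23 tested, 20 were higher and 0 lower, with a median log2 difference of 0.57. The 20 included cystine, cationic and neutral amino acid transporters (Slc7a11, Slc7a1, Slc7a3, Slc7a5, Slc3a2, Slc1a4, Slc1a5, Slc38a2 and Slc6a9), the serine synthesis enzymes Phgdh, Psat1 and Psph, asparagine synthetase Asns, and the proline genes Aldh18a1 and Pycr1. Cth, which makes cysteine by transsulfuration, was at 49.99, 47.8 and 44.7 TPM with BAY-876 and TNF, against 13.4, 12.2 and 14.8 TPM with TNF alone (log2 1.75, SE 0.08, limma adjusted p = 1.92e-07). Slc7a3, a cationic amino acid transporter, was at 39.5, 37.3 and 35.5 TPM with BAY-876 and TNF, against 14.03, 12.5 and 9.83 TPM with TNF alone (log2 1.56). The mitochondrial folate enzymes rose too. Aldh1l2 was at 134, 109 and 100.4 TPM with BAY-876 and TNF, against 35.3, 27.5 and 28.1 TPM with TNF alone (log2 1.88, SE 0.11, limma adjusted p = 6.86e-07), while Shmt2 had a log2 difference of 0.77 and Mthfd2 one of 0.89. Pck2, the mitochondrial form of phosphoenolpyruvate carboxykinase, which makes a glycolytic intermediate from oxaloacetate, was at 187, 175 and 169 TPM with BAY-876 and TNF, against 64.5, 56.9 and 53.7 TPM with TNF alone (log2 1.59, SE 0.06, limma adjusted p = 7.00e-08).

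Aminoacyl-tRNA synthetases, which charge tRNAs, gave 15 higher and 4 lower of 21, with a median log2 difference of 0.26. Besides cytosolic enzymes the list holds the mitochondrial Fars2, which did not pass. Sars had a log2 difference of 0.74, Cars and Yars of 0.60 each, and Gars of 0.50. The 4 that were lower were Farsb, Kars, Qars and Vars. Under median-ratio scaling the same list gave 15 higher and 1 lower. Of 34 cytosolic ribosomal protein genes, 17 were higher and 0 lower with small differences and a list median of 0.09. Quantile scaling gave 13 higher and 1 lower and median-ratio scaling 30 higher and 0 lower, and the many processed pseudogenes of this family make the assignment of reads uncertain.

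**Figure D2:**
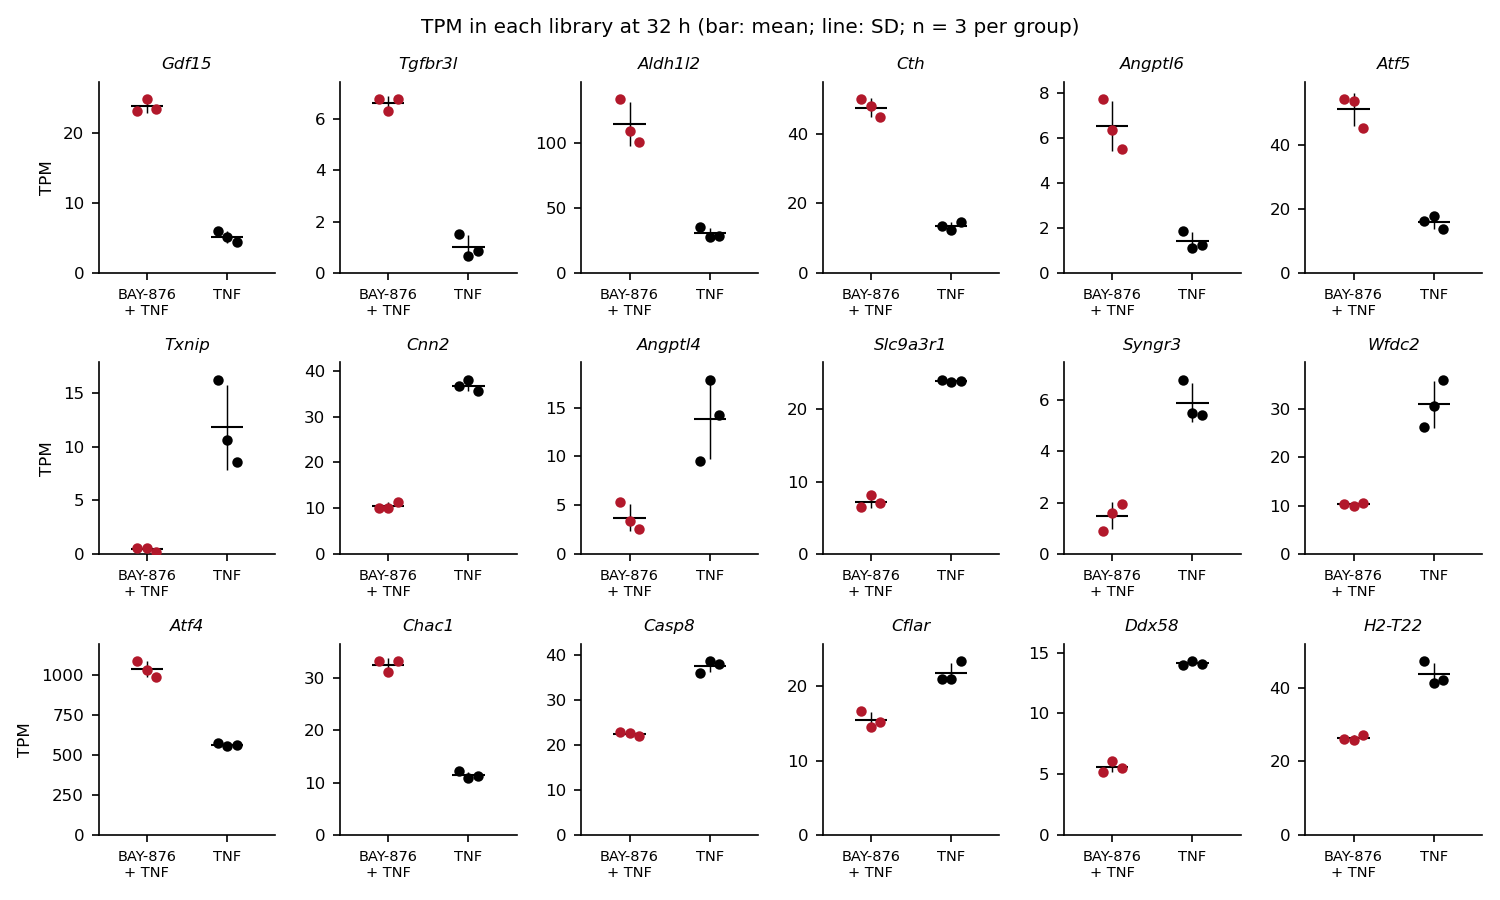
TPM in each library, BAY-876 with TNF in red and TNF alone in black, with the mean as a bar and the SD as a line (n = 3 per group). The top row holds the 6 highest log2 differences of the named genes and the middle row the 6 lowest. Groups that do not overlap were a condition for choosing these genes. They do not overlap in the bottom row either, as in 14.8% of all genes in the higher and 31.6% in the lower direction.

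Outside these lists, the highest log2 differences among the named genes were those of Tgfbr3l (1.94), Angptl6, a secreted angiopoietin-like protein (1.64), and the secreted carbonic anhydrase Car6 (1.51). Tgfbr3l was at 6.76, 6.29 and 6.76 TPM with BAY-876 and TNF, against 1.52, 0.658 and 0.843 TPM with TNF alone. Angptl6 and Car6 were also low genes, averaging 6.52 ± 1.12 and 9.87 ± 0.837 TPM with BAY-876 and TNF and 1.42 ± 0.404 and 2.84 ± 0.556 TPM with TNF alone.

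After Txnip, the largest fall was that of Cnn2, which encodes the actin-binding protein calponin 2, on chromosome 10 (79988584 to 79996062, plus strand). It was at 9.98, 10.04 and 11.4 TPM with BAY-876 and TNF, against 36.6, 37.99 and 35.5 TPM with TNF alone (log2 -1.72, SE 0.06, limma adjusted p = 2.2e-08). Slc9a3r1, the scaffold protein NHERF1 that links membrane proteins to the cortical cytoskeleton, was at 6.504, 8.18 and 7.07 TPM with BAY-876 and TNF, against 24.1, 23.8 and 23.9 TPM with TNF alone (log2 -1.60). The focal adhesion protein Fblim1 had a log2 difference of -1.36 and the small GTPase Rras one of -1.44. The secreted lipase inhibitor Angptl4 was at 5.29, 3.33 and 2.5999 TPM with BAY-876 and TNF, against 9.52, 17.8 and 14.3 TPM with TNF alone (log2 -1.65, SE 0.32, limma adjusted p = 0.00188). Its TNF libraries spread widely, and none came as low as the highest inhibitor library, which the rule that named this gene required. The remaining genes of the 12 lowest were the synaptic vesicle gene Syngr3 (log2 -1.49), the secreted Wfdc2 (log2 -1.49), Aamdc (log2 -1.46), the calcium-binding S100a3 (log2 -1.43), Kank3 (log2 -1.43) and the ubiquitin ligase Neurl3 (log2 -1.42).

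More glycolytic genes were lower than higher. Of 22 tested, 2 were higher (Hk2 and Eno2) and 9 lower, with a median log2 difference of -0.14, and median-ratio scaling gave 5 higher and 7 lower. Pgk1, which makes ATP in lower glycolysis, was at 1104, 1028 and 1003 TPM with BAY-876 and TNF, against 1484, 1472 and 1459.5 TPM with TNF alone (log2 -0.50, SE 0.03, limma adjusted p = 1.95e-06). Ldha, which reduces pyruvate to lactate, was at 1589.9, 1599 and 1534 TPM with BAY-876 and TNF, against 1947, 1947 and 2029.7 TPM with TNF alone (log2 -0.33), and Tpi1 had a log2 difference of -0.46. No inhibitor library reached the lowest TNF library in these genes, which were named for their small p. The same held for 31.6% of all genes. Genes of pyruvate entry and the TCA cycle gave 3 higher and 13 lower of 26, led by Sdhd (log2 -0.46) and Mdh1 (log2 -0.37), but 7 higher and 6 lower under median-ratio scaling, so that list has no single direction. The hexosamine list gave 1 higher, Gnpnat1 (log2 0.55), and 2 lower, Uap1 (log2 -0.51) and Oga (log2 -0.53), of 7. Respiratory chain subunits gave 2 higher and 5 lower of 33 as deposited, and 5 higher and 1 lower under median-ratio scaling.

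The pentose phosphate and NADPH list gave 6 higher and 2 lower of 11, and 8 higher and 0 lower under median-ratio scaling. G6pdx, whose product opens the pathway, had a log2 difference of 0.31, Pgls one of 0.29, Pgd one of 0.20 and Rpia one of 0.43. Antioxidant and glutathione genes gave 10 higher and 5 lower of 23, and 13 higher and 3 lower under median-ratio scaling. Without TNF the list gave 2 higher and 10 lower, where 12.2% of all genes were higher and 26.8% lower. The difference between these responses, tested below, was called positive in 7 of the 23 and negative in 0. Over all genes these shares were 0.738% and 0.880%. Hmox1, which degrades heme, was at 60.4, 53.6 and 56.8 TPM with BAY-876 and TNF, against 29.1, 26.4 and 27.6 TPM with TNF alone (log2 1.01, SE 0.06, limma adjusted p = 6.57e-07). Sqstm1, the autophagy receptor p62, was at 564, 539 and 517 TPM with BAY-876 and TNF, against 310.0, 317 and 309 TPM with TNF alone (log2 0.79).

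Lipid synthesis genes were higher in part. Of 24 cholesterol synthesis genes, 8 were higher and 2 lower (Pmvk and Sc5d), against 13 higher and 1 lower under median-ratio and 12 higher and 1 lower under quantile scaling, with Sqle at a log2 difference of 0.41 and Msmo1 at 0.35. Of 16 fatty acid synthesis genes, 4 were higher and 1 lower. Fasn, fatty acid synthase, was at 315, 289.9 and 281 TPM with BAY-876 and TNF, against 132, 147 and 154 TPM with TNF alone (log2 1.03, SE 0.06, limma adjusted p = 6.86e-07). Acss2, which makes acetyl-CoA from acetate, fell by 0.55 on the log2 scale.

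Hypoxia-inducible genes split evenly, with 5 higher and 5 lower of 16. Ndrg1 was at 106, 86.5 and 80.7 TPM with BAY-876 and TNF, against 36.9, 34.6 and 31.8 TPM with TNF alone (log2 1.37), and the angiogenic factor Vegfa was at 154, 137 and 109 TPM with BAY-876 and TNF, against 66.6, 56.3 and 62.1 TPM with TNF alone (log2 1.09). The mitophagy receptor Bnip3l fell by 0.59. ER chaperone and unfolded protein response genes gave 5 higher and 10 lower of 24. The ER-associated degradation gene Herpud1 had a log2 difference of 0.75, while Xbp1, the transcription factor that raises chaperones, had one of -0.44 and the chaperone Hsp90b1 one of -0.35. Cytosolic and mitochondrial heat shock genes gave 3 higher and 3 lower of 12, and 5 higher and 0 lower under median-ratio scaling. Hspa8 (log2 0.26) was higher, and the call of Hspa4 (log2 -0.22) was lost with that scaling.

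**Figure D3:**
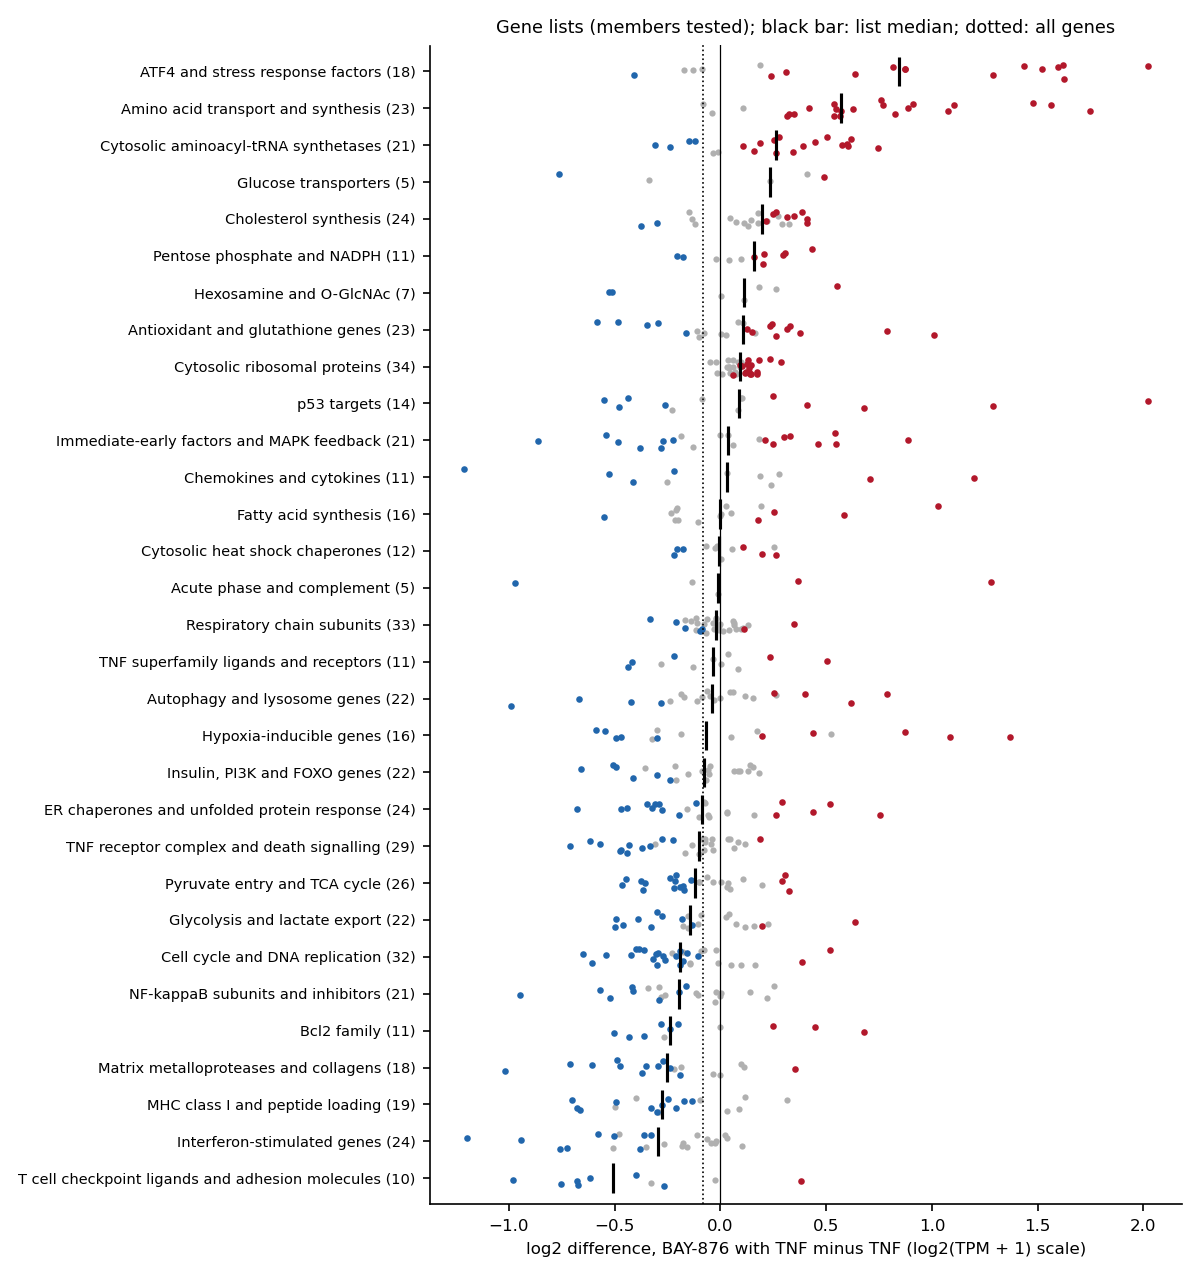
Each point is a tested member of a gene list, placed by its log2 difference, BAY-876 with TNF minus TNF, with red and blue for genes past the limma threshold in either direction. Black bars are list medians, from 0.84 for the ATF4 and stress factors to -0.51 for checkpoint ligands and adhesion molecules, and the dotted line is the median of all genes at -0.08.

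In the TNF pathway, the receptor complex and death signalling list gave 1 higher (Mlkl) and 11 lower of 29, with a median log2 difference of -0.10, and 1 higher and 9 lower under median-ratio scaling. Casp8, the initiator caspase of death receptors, on chromosome 1 (58795374 to 58847503, plus strand), was at 22.9, 22.7 and 22.1 TPM with BAY-876 and TNF, against 36.02, 38.7 and 38.1 TPM with TNF alone (log2 -0.71, SE 0.06, limma adjusted p = 5.68e-06). Its inhibitor Cflar, which encodes c-FLIP, was at 16.6, 14.6 and 15.2 TPM with BAY-876 and TNF, against 21.00, 20.96 and 23.4 TPM with TNF alone (log2 -0.47, SE 0.06, limma adjusted p = 0.000193). Both genes had non-overlapping groups, as did 31.6% of all genes in the lower direction. The executioner caspase gene Casp6 had a log2 difference of -0.57.

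Birc3, which encodes the ubiquitin ligase cIAP2, was at 9.296, 7.15 and 7.14 TPM with BAY-876 and TNF, against 13.2, 11.4 and 13.03 TPM with TNF alone (log2 -0.62, SE 0.14, limma adjusted p = 0.00483). Birc2, which encodes cIAP1, had groups that overlapped, at 11.3, 17.7 and 13.5 TPM with BAY-876 and TNF, against 13.6, 17.6 and 12.2 TPM with TNF alone (log2 -0.03, limma adjusted p = 0.91). Ripk1, the kinase at the centre of the complex (log2 -0.04), and the adaptor Fadd (log2 0.08) did not pass either. The receptor gene Tnfrsf1a fell to 45.6, 45.8 and 46.7 TPM with BAY-876 and TNF, against 54.04, 55.01 and 52.2 TPM with TNF alone (log2 -0.22, limma adjusted p = 0.00199). Of 11 tested TNF superfamily genes 2 were higher and 3 lower. The TRAIL receptor gene Tnfrsf10b had a log2 difference of -0.44 and the death receptor Tnfrsf21 one of 0.50, and the ligand gene Tnf itself was below the filter. Of 11 Bcl2 family genes 3 were higher, all pro-apoptotic (Bax, Bid and Bbc3), and 6 were lower, of which Bcl2, Bcl2l1 and Mcl1 protect cells and Bak1, Bok and Bcl2l11 promote death. Bbc3, which encodes PUMA, was at 18.97, 20.8 and 22.1 TPM with BAY-876 and TNF, against 12.5, 12.4 and 12.5 TPM with TNF alone (log2 0.68).

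NF-kappaB subunits and inhibitors gave 0 higher and 8 lower of 21, with a median log2 difference of -0.19, and 3 higher and 5 lower under median-ratio scaling. Ikbke, a kinase that TNF induces, was at 7.602, 9.91 and 7.81 TPM with BAY-876 and TNF, against 16.1, 17.4 and 17.7 TPM with TNF alone (log2 -0.95, SE 0.10, limma adjusted p = 4.75e-05). Nfkb1 (log2 -0.29), Ikbkb (log2 -0.42) and the deubiquitinase Cyld (log2 -0.52) were also lower. The feedback inhibitor genes Nfkbia and Tnfaip3 were not shown to change. Nfkbia was at 304, 321 and 309 TPM with BAY-876 and TNF, against 343, 321 and 341 TPM with TNF alone (log2 -0.10, SE 0.08, limma adjusted p = 0.35), and Tnfaip3 was at 11.3, 9.88 and 10.5 TPM with BAY-876 and TNF, against 10.1, 11.4 and 10.6 TPM with TNF alone (log2 -0.02, SE 0.10, limma adjusted p = 0.89). In cells without TNF, Nfkbia averaged 45.1 TPM with BAY-876 and 43.7 TPM in control cells, and Tnfaip3 averaged 1.94 TPM with BAY-876 and 1.87 TPM in control cells.

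Secreted mediators went in both directions. Of 11 tested chemokines and cytokines 2 were higher, Ccl7 and Cxcl2, and 4 lower, Cx3cl1, Csf1, Il34 and Lif, while 20 of the 31 listed genes were below the filter. The monocyte chemoattractant Ccl7 was at 293, 278 and 331 TPM with BAY-876 and TNF, against 180.3, 181 and 187 TPM with TNF alone (log2 0.71, SE 0.09, limma adjusted p = 0.000127). Il34, a ligand of the CSF1 receptor, was at 2.72, 2.19 and 2.56 TPM with BAY-876 and TNF, against 7.67, 8.47 and 5.37 TPM with TNF alone (log2 -1.21). Of 5 tested acute-phase and complement genes 2 were higher, Saa3 (log2 1.28) and C1s1 (log2 0.37), and 1 was lower, C3 (log2 -0.97).

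No tested gene of the interferon-stimulated and antigen-presentation lists passed the threshold upward. Of 24 tested interferon-stimulated genes 0 were higher and 9 lower, with a median log2 difference of -0.30, and 6 were lower under median-ratio scaling. Ddx58, which encodes the RNA sensor RIG-I, was at 5.22, 6.09 and 5.54 TPM with BAY-876 and TNF, against 13.98, 14.3 and 14.1 TPM with TNF alone (log2 -1.20, SE 0.09, limma adjusted p = 3.14e-06). The interferon-gamma receptor subunit Ifngr1 was at 18.7, 23.6 and 18.8 TPM with BAY-876 and TNF, against 41.3, 40.5 and 37.9 TPM with TNF alone (log2 -0.94), and the transcription factor Irf1 had a log2 difference of -0.50. The groups were apart in all 3 genes, as in 31.6% of all genes in the lower direction, and these genes were named for their small p.

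MHC class I and peptide-loading genes gave 0 higher and 11 lower of 19, with a median log2 difference of -0.28, and 0 higher and 7 lower under median-ratio scaling. The peptide transporter Tap1 was at 6.59, 5.64 and 6.24 TPM with BAY-876 and TNF, against 10.5, 9.59 and 10.9 TPM with TNF alone (log2 -0.66, SE 0.10, limma adjusted p = 0.000463), and Tap2 had a log2 difference of -0.30. H2-T22 (log2 -0.70) and H2-T23 (log2 -0.68) were lower as well, though the H2 genes are a family of near copies between which reads can be split wrongly. B2m, Tapbp and Psmb8 also passed. Of 10 checkpoint ligands and adhesion molecules 1 was higher, the poliovirus receptor gene Pvr (log2 0.38), and 7 were lower, with a median of -0.51. Raet1e, a ligand of the activating receptor NKG2D, was at 6.32, 5.44 and 6.07 TPM with BAY-876 and TNF, against 13.9, 13.6 and 10.7 TPM with TNF alone (log2 -0.98), the adhesion molecule Vcam1 was at 34.97, 39.7 and 41.2 TPM with BAY-876 and TNF, against 61.8, 59.8 and 57.3 TPM with TNF alone (log2 -0.62), and Lgals9 had a log2 difference of -0.75.

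Proliferation and matrix genes were mostly lower. Of 32 tested cell cycle and replication genes 2 were higher, Cdk4 and Ccne1, and 19 lower, with a median log2 difference of -0.19, and median-ratio scaling gave 4 higher and 15 lower. The proliferation marker Mki67 was at 52.3, 47.9 and 48.7 TPM with BAY-876 and TNF, against 79.1, 77.05 and 71.99 TPM with TNF alone (log2 -0.61, SE 0.05, limma adjusted p = 3.57e-06). Ccnb2, a mitotic cyclin, had a log2 difference of -0.65 and the mitotic kinase Plk1 one of -0.42. Cdk4, which drives entry into S phase, was at 893, 934 and 936 TPM with BAY-876 and TNF, against 602, 647 and 681 TPM with TNF alone (log2 0.52). Of 18 matrix genes 1 was higher, Fn1, and 11 lower, led by Col18a1 at 33.6, 36.1 and 29.4 TPM with BAY-876 and TNF, against 67.6, 73.4 and 62.97 TPM with TNF alone (log2 -1.02), with Sparc at a log2 difference of -0.49 and Loxl2 at -0.71.

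Immediate-early and MAPK feedback genes gave 8 higher and 7 lower of 21. Myc was at 1136, 1067 and 1012 TPM with BAY-876 and TNF, against 753, 731 and 721 TPM with TNF alone (log2 0.54, SE 0.05, limma adjusted p = 1.08e-05). Dusp6, a phosphatase that ERK induces to limit itself, was at 28.5, 30.5 and 32.1 TPM with BAY-876 and TNF, against 63.4, 55.4 and 50.2 TPM with TNF alone (log2 -0.86), and Junb had a log2 difference of -0.48. In the insulin and PI3K list 0 of 22 were higher and 6 lower, including Pik3r2 (log2 -0.66). The share lower was near the 25.1% of all genes. Median-ratio scaling gave 3 higher and 4 lower, near the 17.1% and 16.8% of all genes. Of 14 p53 targets 5 were higher and 4 lower, among them Phlda3 (log2 -0.55). Among autophagy and lysosome genes 4 of 22 were higher and 4 lower, with Gpnmb at a log2 difference of 0.62, Ctsb at 0.40 and Wipi1 at -0.99.

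The same inhibitor was compared without TNF to ask how far its effect depended on the cytokine. BAY-876 against control changed 4696 genes, which is 39.0% of those tested, with 12.2% higher and 26.8% lower. Of the 1321 genes higher with BAY-876 in TNF-treated cells, 858 were also higher without TNF, which is 65% of these and 58.4% of the 1468 higher without TNF. Of the 3028 lower genes 2150 were shared, which is 71% of these and 66.6% of the 3228 lower without TNF, while 19 genes were higher with TNF and lower without it and 21 were lower with TNF and higher without it. The 2 comparisons share no libraries, and their log2 differences correlated at 0.667 over 12052 genes, which are not independent replicates. At 36 h, where 1868 of 12937 genes changed (14.4%, with 7.34% higher and 7.10% lower), 303 of the 1300 higher genes tested in both experiments were also higher, which is 23.3% of these and 32.9% of those at 36 h. Of the 3011 lower genes tested in both, 296 were also lower, which is 9.83% of these and 33.1% of those at 36 h. Leaving out 1 library of that experiment gave 648 to 2394 changed genes, with 1072 without the third BAY-876 library and 765, 714 and 648 without the first, the second and the third vehicle library. Its log2 differences correlated with those in TNF-treated cells at 0.221 over 11679 genes. The ATF4 and stress factor list gave 10 higher and 2 lower of 18 without TNF, and 12 higher and 0 lower of 17 at 36 h. The amino acid list gave 16 higher and 3 lower of 23 at 36 h. Several other lists did not keep their direction at 36 h, in an experiment measured apart in normalized counts. Glycolytic genes gave 9 higher and 1 lower of 23 there, against 3 higher and 7 lower of 22 without TNF at 32 h. ER chaperone genes gave 10 higher and 0 lower of 24, against 2 higher and 14 lower without TNF at 32 h. For MHC class I genes these counts were 4 higher and 0 lower of 19, against 1 higher and 9 lower. For cell cycle genes they were 4 higher and 4 lower of 32, against 2 higher and 22 lower. Hypoxia-inducible genes, which split evenly with TNF, gave 10 higher and 0 lower of 16 at 36 h. Without TNF at 32 h they gave 6 higher and 2 lower. Chac1 averaged 169.7 ± 10.8 normalized counts with BAY-876 and 15.7 ± 2.95 with vehicle at 36 h (SD, n = 3 each; log2 3.36), and Ddit3 averaged 433 ± 13.9 with BAY-876 and 171 ± 12.1 with vehicle (log2 1.33).

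The difference itself was tested by subtracting the BAY-876 response without TNF from that with TNF, and passed in 195 genes (1.62% of 12052), of which 89 (0.738%) had a positive and 106 (0.880%) a negative value. Of the 89 genes, 53 were higher with BAY-876 in TNF-treated cells, and 17 were higher both with and without TNF. Of the 106 genes, 61 were lower with BAY-876 in TNF-treated cells and 64 were higher with it in cells without TNF. These counts depended on single libraries. Without the second or the third TNF library 110 or 123 genes passed, without the second or the third BAY-876 library 115 or 123, and without the second control library 117. The positive values numbered 136 without the third library of BAY-876 with TNF and 56 without the first control library.

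**Figure D4:**
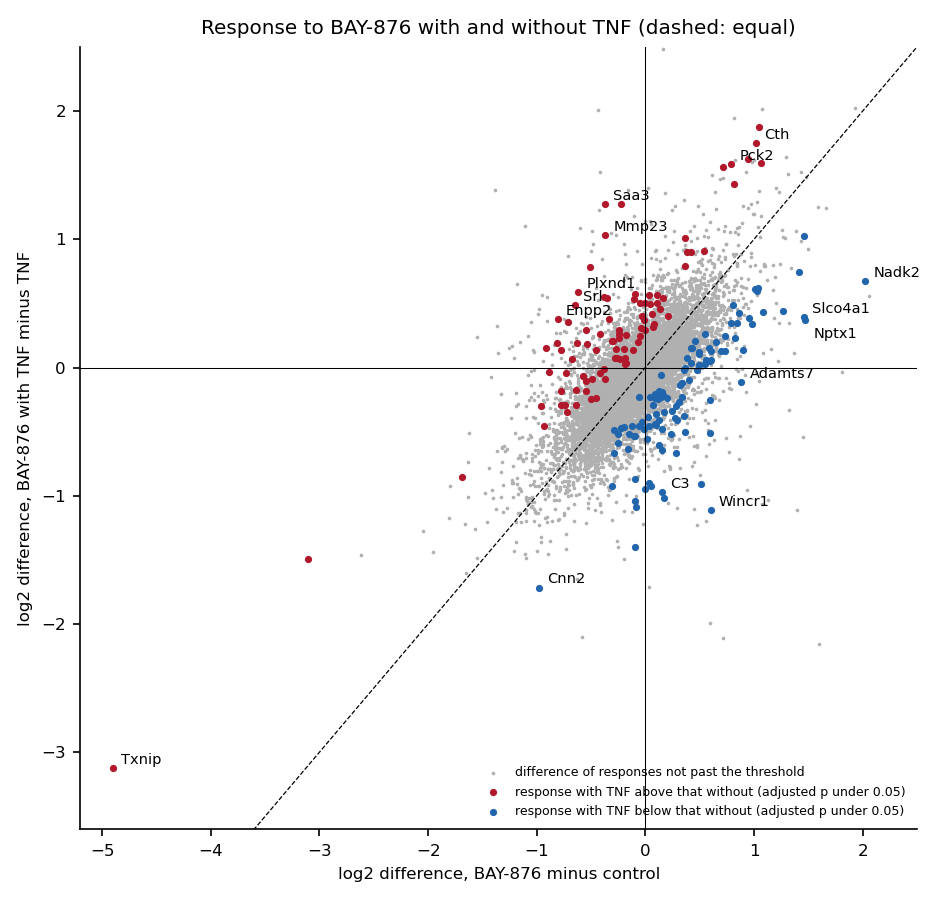
Each point is a gene, with its log2 difference for BAY-876 minus control across and for BAY-876 with TNF minus TNF upward, and the dashed line marks equal responses. Red and blue points passed the test of the difference, 89 above and 106 below the line, and Txnip is far to the lower left at -4.90 and -3.12.

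Several ATF4-linked genes had a larger log2 response in TNF-treated cells. The difference was called positive in 3 of 18 ATF4 and stress factor genes and in 5 of 23 amino acid genes. It was negative in 0 of either list, and positive in 0.738% of all genes. For Pck2 and Chac1 the level with BAY-876 was not higher with TNF than without it, while for Cth it was. Pck2 averaged 177 ± 9.12 TPM with BAY-876 and TNF and 58.3 ± 5.55 TPM with TNF alone, against 199 ± 7.86 TPM with BAY-876 and 115 ± 4.24 TPM in control cells (SD, n = 3 each). Its responses differed by 0.80 on the log2 scale (SE 0.09, limma adjusted p = 0.00207), and its level with TNF alone was the lowest of the 4 groups. Chac1 showed the same order of levels, at 32.6 ± 1.25 TPM with BAY-876 and TNF, 11.4 ± 0.692 TPM with TNF, 34.6 ± 3.65 TPM with BAY-876 and 19.2 ± 0.404 TPM in control cells, with a difference of 0.62. Cth differed by 0.73 and averaged 47.5 ± 2.66 TPM with BAY-876 and TNF, 13.5 ± 1.27 TPM with TNF, 29.7 ± 1.97 TPM with BAY-876 and 14.2 ± 1.19 TPM in control cells. Hmox1 (0.64), Sqstm1 (0.43) and Gars (0.40) also had larger responses with TNF, and these calls held under each alternative tried. Those of Aldh1l2 (0.84), Slc7a3 (0.85), Atf5 (0.68), Trib3 (0.53), Slc1a4 (0.37) and Myc (0.38) were positive but were lost when some single libraries were left out, among them the second TNF library for all but Atf5. For Atf4, Ddit3 and Gdf15, the difference did not pass (0.19, 0.09 and 0.10).

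Saa3, on chromosome 7 (46711998 to 46715700, minus strand), was at 32.4, 27.5 and 25.1 TPM with BAY-876 and TNF and at 11.2, 10.6 and 11.4 TPM with TNF alone, against means of 1.16 ± 0.485 TPM with BAY-876 and 1.81 ± 0.762 TPM in control cells (SD, n = 3 each). Its responses differed by 1.65 (SE 0.29, limma adjusted p = 0.0144), a call lost at a pseudocount of 0.1 TPM. C3 was at 17.9, 18.2 and 17.5 TPM with BAY-876 and TNF and at 36.4, 36.1 and 35.5 TPM with TNF alone, against 0.341 ± 0.338 TPM with BAY-876 and 0.184 ± 0.0752 TPM in control cells. Its difference of -1.12 (SE 0.20) was a call lost at that pseudocount, with no filter and without the second TNF library. The call of C3 with TNF present was also lost at that pseudocount. Both groups without TNF averaged under 1 TPM, near the floor of the log2(TPM + 1) scale, so little response could show there. The difference for C3 therefore mainly carries its response with TNF, and no p-value is given. Ikbke averaged 8.44 ± 1.28 TPM with BAY-876 and TNF, 17.1 ± 0.853 TPM with TNF, 6.56 ± 0.569 TPM with BAY-876 and 6.56 ± 0.495 TPM in control cells, a difference of -0.95 (SE 0.15, limma adjusted p = 0.00874). The noncoding RNA Wincr1 averaged 9.96 ± 1.24 TPM with BAY-876 and TNF, 22.7 ± 2.75 TPM with TNF, 4.58 ± 0.147 TPM with BAY-876 and 2.82 ± 1.33 TPM in control cells, a difference of -1.72.

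**Figure D5:**
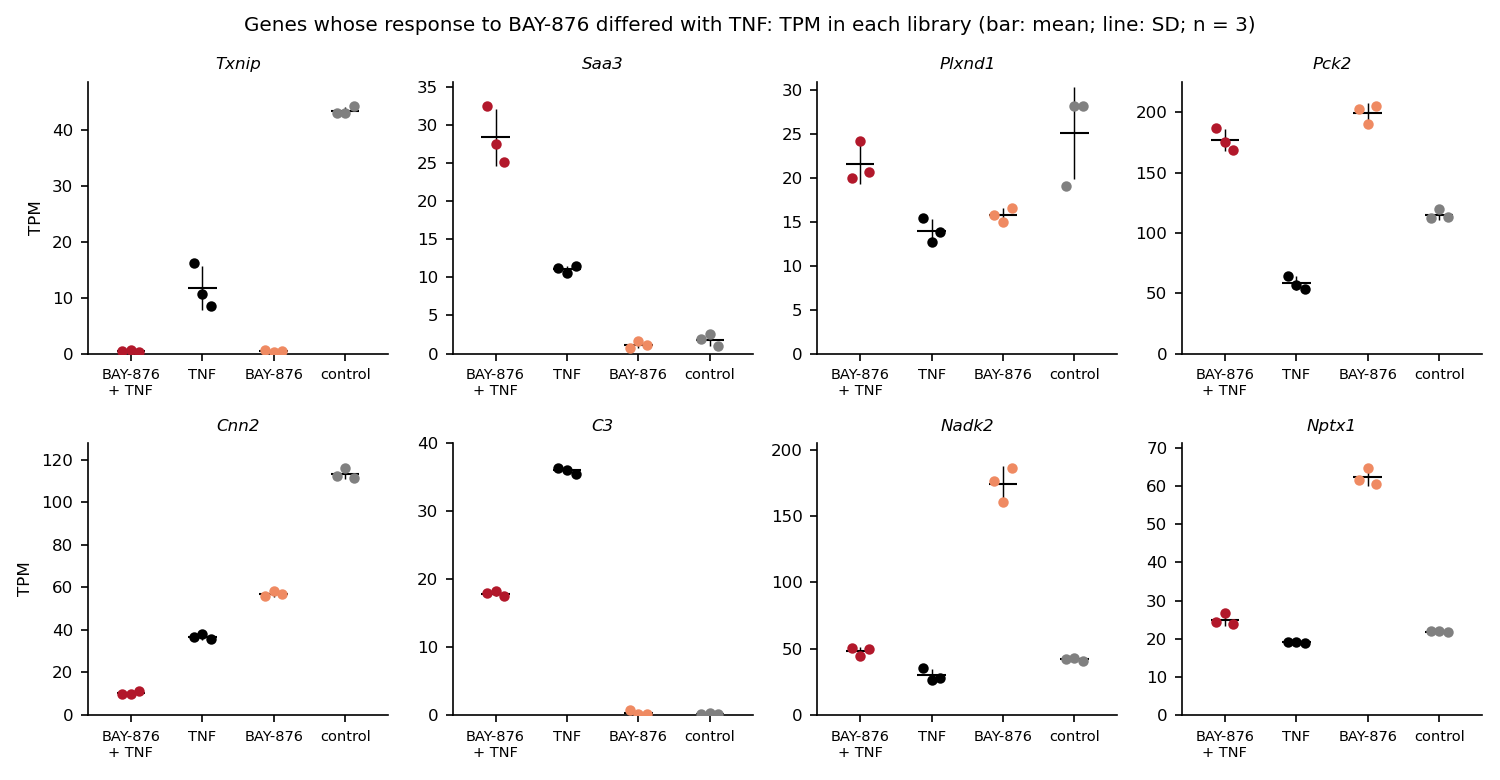
TPM in each library of the 4 groups at 32 h for 8 genes whose response to BAY-876 differed with TNF, with the mean as a bar and the SD as a line (n = 3 per group). Txnip is near 0 in both BAY-876 groups and at 43.5 TPM in control cells, Saa3 is highest with BAY-876 and TNF, C3 with TNF alone, and Nadk2 and Nptx1 with BAY-876 alone.

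For other genes the response was larger without TNF. Nadk2, the mitochondrial NAD kinase, averaged 48.3 ± 3.37 TPM with BAY-876 and TNF, 30.0 ± 4.67 TPM with TNF, 174 ± 13.0 TPM with BAY-876 and 42.0 ± 1.1025 TPM in control cells, a difference of -1.35 (SE 0.13, limma adjusted p = 0.00185). Nptx1, a secreted pentraxin, averaged 25.0 ± 1.58 TPM with BAY-876 and TNF, 19.1 ± 0.155 TPM with TNF, 62.3 ± 2.19 TPM with BAY-876 and 21.9 ± 0.0776 TPM in control cells, a difference of -1.09, and the organic anion transporter Slco4a1 differed by -1.06. Txnip had a difference of 1.78 (SE 0.26), a call lost at a pseudocount of 0.1 TPM. Its level was under 1 TPM in both BAY-876 groups, while it averaged 11.8 ± 3.95 TPM with TNF and 43.5 ± 0.684 TPM in control cells. With both BAY-876 groups near the floor of the log2(TPM + 1) scale, this difference mainly carries the levels without the inhibitor, and no p-value is given. The lipid genes Msmo1 (-0.50) and Fasn (-0.43) rose less with TNF present, the call of Msmo1 being lost without the third BAY-876 library and that of Fasn under most alternatives. Cnn2 fell further with TNF, with a difference of -0.74 (SE 0.08, limma adjusted p = 0.00204). The semaphorin receptor Plxnd1 was higher with BAY-876 in TNF-treated cells (log2 0.59) and lower with it in cells without TNF (log2 -0.62), a difference of 1.21, and Srl did likewise (0.49 and -0.65, a difference of 1.14). For Casp8 and Cflar the difference did not pass (0.09, SE 0.08, and -0.18, SE 0.09).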

How the data were processed

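Tools listed without roles in the submitters' processing notes are DESeq2 1.34.0, Salmon 0.13.1 and 0.14.1 and STAR 2.6.1d, with the build mm10. The deposited 32 h table holds TPM, which the authors scaled to 1000000 in each library. Read depth is therefore unknown and no interval for counting error is given. The deposited 36 h table holds a signal of counts that the authors normalized, with DESeq2 going by the name of the file. The authors' deposited comparison table gives log2 fold changes, a test score and p-values per gene. In the 32 h table, 24 columns that no label matches were not used.

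Values were taken to log2(value + 1). A model of 4 group means was fitted to the 12 libraries of 32 h with limma 3.58.1 (R 4.3.3, trend option), with Benjamini-Hochberg adjustment over all genes tested and a threshold of 0.05. The 36 h libraries were fitted apart, on genes at 10 normalized counts or more in 3 libraries. At the edge of the filter, 326 genes reached 1 TPM in exactly 3 libraries and were kept, and 363 did so in exactly 2 and were not. Of the genes kept, 31 reached 1 TPM in the 3 libraries of BAY-876 with TNF and in no TNF library, and 75 in the 3 TNF libraries and in no library of BAY-876 with TNF, so these had to differ.

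The genes and 32 lists (699 names, 0 absent from the table) were chosen with earlier results of these data known. The rule named the 12 highest and 12 lowest log2 differences among called genes with non-overlapping libraries and a mean of at least 5 TPM, the 4 called members with the smallest p of each list, all measured Slc2a genes, the 6 highest and 6 lowest interaction values, and 12 fixed genes, of which Arrdc4 was below the filter. It left out predicted and mitochondrial genes. Further list members given as examples were chosen after their values were seen. Alternatives were 2 other scalings, other filters and pseudocounts, each library left out, only the libraries compared, and the replicate number as a block. Promoter windows are RefSeq's, and coordinates are from GENCODE M21 on GRCm38, where 96.4% of symbols were found. Some members of the lists are counted but not reported here by name.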

Additional observations from a re-analysis of the deposited data

Results flagged for a closer look

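In 34 of the named genes the BAY-876 response in TNF-treated cells differed from that in cells without TNF (limma threshold), and each value below is the first minus the second on the log2 scale. Among metabolic and stress genes it was positive for Aldh1l2 (0.84), Slc7a3 (0.85), Pck2 (0.80), Cth (0.73), Atf5 (0.68), Hmox1 (0.64), Chac1 (0.62), Trib3 (0.53), Sqstm1 (0.43), Gars (0.40), Gstm1 (0.38), Slc1a4 (0.37), Nfe2l2 (0.30), Pgd (0.27) and Ctsb (0.19). It was also positive for Txnip (1.78), where both BAY-876 groups lay under 1 TPM, and for Saa3 (1.65) and Mmp23 (1.41). Plxnd1 (1.21), Enpp2 (1.19), Srl (1.14) and Myc (0.38) had positive values too. It was negative for Wincr1 (-1.72), Nadk2 (-1.35), Nptx1 (-1.09), Slco4a1 (-1.06), Adamts7 (-1.0001), Ikbke (-0.95) and Cnn2 (-0.74). It was also negative for C3 (-1.12), which averaged under 1 TPM in both groups without TNF. Lipid, glycolytic and other genes with negative values were Msmo1 (-0.50), Fasn (-0.43), Gpnmb (-0.42) and Tpi1 (-0.33). Of the 34 calls, 16 held under each alternative tried and 18 were lost under at least 1. The 18 were those of Aldh1l2, Atf5, C3, Ctsb, Enpp2, Fasn, Gstm1, Mmp23, Msmo1, Myc, Nfe2l2, Pgd, Saa3, Slc1a4, Slc7a3, Tpi1, Trib3 and Txnip.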

How the results depend on the processing

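The count of 4349 genes changed by BAY-876 with TNF stayed within 1.5 times under each alternative tried, from 3557 when only the 6 libraries compared were fitted to 4355 at a pseudocount of 0.1 TPM, and leaving out a library gave 3560 to 4017. The count higher was 2056 with median-ratio size factors, and the cause was not tested. Leaving out a library gave 110 to 259 genes for the difference between responses, of which 47 to 136 were positive and 63 to 123 negative. At 36 h it gave 648 to 2394 genes. Replicate numbers did not pair the libraries (correlation of same-numbered deviations 0.14, -0.10 and 0.07). With the replicate number as a block, 4272 genes changed with TNF, 4633 without, 181 differed between responses and 1563 changed at 36 h.

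The difference in Slc2a1 share of 3.15 percentage points was -1.34 when only Slc2a1 to Slc2a4 were summed. Of 146 called named genes, 137 kept their call in each alternative that could be run for them. The 9 others were Atp5c1, C3, Elovl1, Foxo4, Hsp90ab1, Hspa4, Ndufs1, Prkaa1 and Tnfsf12. A few genes at low levels, Txnip among them, fell below some filters and were not fitted there. Among the genes not called, Slc2a1 passed under both other scalings and without the third library of BAY-876 with TNF. Slc2a10 passed under quantile scaling, and Enpp2 under both scalings and without the third library of BAY-876 with TNF or of TNF. Another 3 changed sign. Birc2 was at 0.0821 under quantile and 0.0499 under median-ratio scaling, and from -0.194 to 0.108 with a library left out. Ripk1 was at 0.0474 and 0.0421 under those scalings and from -0.0774 to 0.0107 with a library left out. Tnfaip3 was at 0.0880 and 0.0596 under those scalings and from -0.0681 to 0.0211 with a library left out. The 3 libraries per group limit precision, and read depth behind TPM is unknown.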
